A study of Homo sapiens with 12 samples.

Results

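HCT116, a line from a human colon carcinoma, was compared with HL60, a line from a human acute promyelocytic leukaemia, on the 8 bead arrays that carry RNA of these lines, out of 12 arrays in the series. Each line was measured after 5-Aza-CdR (decitabine) alone and after a combination with a second agent that is not named in the labels, with 2 arrays for each line and treatment. All 8 samples had therefore received decitabine, a nucleoside drug that is built into DNA and depletes DNA methyltransferases, and no untreated sample, dose or time was analysed here. The arrays of SNU398, a hepatocellular carcinoma line, give reference levels only. Each group is a single cell line. Nothing in the labels tells separate cultures from repeat arrays, and p-values then measure only the spread between these arrays, which may be technical.

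Of 20545 gene symbols in the table used here, 16147 had values for both lines and 12349 were above 0 on all 8 arrays. These 12349 genes were compared as log2 levels. In all, 3255 symbols were listed for HL60 and not for HCT116, 1143 for HCT116 and not for HL60, and 3795 of the genes listed for both were at exactly 0 on both HCT116 replicate 2 arrays. The HCT116 and HL60 columns hold different symbol sets, so a difference in array content or processing between them cannot be told apart from the difference between the lines.

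Epithelial cells of the colon are held together by cadherins, claudins and desmosomes, carry a keratin skeleton built from KRT8, KRT18 and KRT19, and sit on laminins through integrins. Promyelocytes are the granule-forming stage of neutrophil development. They make serine proteases and other granule proteins under transcription factors such as CEBPA, SPI1, MYB and GFI1, and carry beta-2 integrins and the signalling proteins of white blood cells. Promoter sequences from RefSeq are shown for 2 genes with large differences on each side, from 250 bases before to 50 after the gene's start on GRCh38.p14, written 5′ to 3′.

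LCP1 and PRTN3 are among the genes most strongly higher in HL60. Capitals mark GAGGAA, a letter run found in sites of PU.1, the product of SPI1, searched on both strands and marked in this pair only. The LCP1 window is chr13:46182128-46182427 on the minus strand and the PRTN3 window is chr19:840749-841048 on the plus strand.
LCP1: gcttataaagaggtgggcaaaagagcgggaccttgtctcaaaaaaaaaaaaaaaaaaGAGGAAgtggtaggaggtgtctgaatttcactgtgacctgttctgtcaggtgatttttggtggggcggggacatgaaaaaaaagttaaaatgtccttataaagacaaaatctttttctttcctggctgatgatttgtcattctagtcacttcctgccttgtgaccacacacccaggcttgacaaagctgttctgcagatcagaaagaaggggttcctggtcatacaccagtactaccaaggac
PRTN3: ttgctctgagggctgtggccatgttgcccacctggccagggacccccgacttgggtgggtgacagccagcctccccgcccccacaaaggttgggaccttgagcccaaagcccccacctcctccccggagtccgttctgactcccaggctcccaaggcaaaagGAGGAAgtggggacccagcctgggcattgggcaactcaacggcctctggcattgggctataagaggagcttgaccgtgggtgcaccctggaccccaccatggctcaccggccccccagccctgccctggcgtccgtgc

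MSX1 and IFITM3 are among the genes most strongly higher in HCT116. In MSX1, capitals mark CG, the dinucleotide that DNA methyltransferases modify. In IFITM3, capitals mark GAAA, any 2 bases and GAAA again, the core of the interferon-stimulated response element (ISRE), searched on both strands. The MSX1 window is chr4:4859415-4859714 on the plus strand and the IFITM3 window is chr11:320811-321110 on the minus strand.
MSX1: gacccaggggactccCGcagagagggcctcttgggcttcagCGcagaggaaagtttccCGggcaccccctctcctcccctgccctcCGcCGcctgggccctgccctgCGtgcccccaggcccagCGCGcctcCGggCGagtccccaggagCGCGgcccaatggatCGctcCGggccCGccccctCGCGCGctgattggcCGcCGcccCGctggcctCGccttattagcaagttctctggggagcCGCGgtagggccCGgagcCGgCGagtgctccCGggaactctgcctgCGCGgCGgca
IFITM3: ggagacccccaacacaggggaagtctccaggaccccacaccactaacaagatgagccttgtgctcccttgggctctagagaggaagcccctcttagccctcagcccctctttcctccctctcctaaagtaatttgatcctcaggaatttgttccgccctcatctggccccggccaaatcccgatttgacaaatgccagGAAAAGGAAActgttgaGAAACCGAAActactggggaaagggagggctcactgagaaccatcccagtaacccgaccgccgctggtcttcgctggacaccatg

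The arrays did not share a common level. Median log2 over the 12349 genes was 9.10 and 9.08 on the HCT116 replicate 1 arrays, 8.04 and 8.05 on the HCT116 replicate 2 arrays, and between 9.33 and 9.39 on the 4 HL60 arrays. Ribosomal protein genes had medians of 14.18 and 14.38 on the HCT116 replicate 1 arrays and 11.71 and 12.08 on the replicate 2 arrays. In HL60 the ribosomal medians were 14.94 and 14.99 in replicate 1 and 13.08 and 13.88 in replicate 2, so replicate 2 was the lower in both lines. The median difference between the lines was -0.70, with -0.09 in replicate 1 and -1.21 in replicate 2. With each array centred on its own median it was 0.08, and after quantile normalization -0.06. The 5th percentile was 8.08 and 8.07 on the HCT116 replicate 1 arrays and 6.70 and 7.01 on the replicate 2 arrays. On the HL60 arrays it was 7.56 to 7.62, farther below the array medians than in HCT116. After centring, a gene low in both lines can therefore be called higher in HCT116, which limits the centred counts below. As deposited, such a gene can also stand higher in HCT116 on the replicate 1 arrays, where the HCT116 5th percentile lies above that of HL60. Differences below are HCT116 minus HL60 on the deposited log2 scale, ± SE (n = 4 arrays a line), and a relative difference is that value less the median difference of all genes. The SE takes the 4 arrays of a line as independent. Arrays of a line with the same replicate number were correlated (0.87 in the block fit below). The SE is therefore too small as a measure of the spread between replicate numbers, and no SE with the block is printed. Spearman correlations across genes were 0.92 to 0.99 between arrays of a line with the same replicate number, 0.64 to 0.85 between replicate numbers of a line, and 0.48 to 0.75 between lines.

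**Figure D1:**
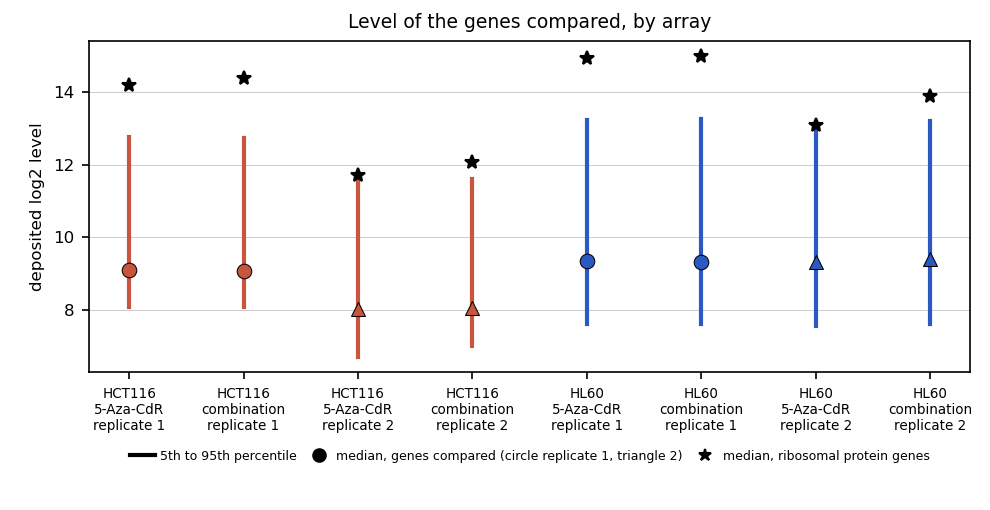
Deposited log2 level of the genes compared on each of the 8 arrays: bar, 5th to 95th percentile; circle or triangle, median (replicate 1 or 2); star, median of the ribosomal protein genes. The HCT116 replicate 2 arrays have medians of 8.04 and 8.05, below all 6 other arrays.

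With treatment and replicate number as covariates, limma called 5595 of 12349 genes (45.3%) at an adjusted p under 0.05, of which 692 were higher in HCT116 (5.60% of genes) and 4903 higher in HL60 (39.7%). That split moved with the scaling. After median centring 6213 genes were called (50.3%), 3703 higher in HCT116 (30.0%) and 2510 higher in HL60 (20.3%). After quantile normalization 5255 were called (42.6%), 2498 higher in HCT116 (20.2%) and 2757 higher in HL60 (22.3%). Of the 5595 genes, 3202 were also called in the same direction after centring and 3320 after quantile normalization, and 0 in the opposite direction in either. With arrays of 1 line and replicate number as a random replicate block (estimated correlation 0.87), 917 genes were called (7.43%), 168 higher in HCT116 (1.36%) and 749 higher in HL60 (6.07%), all in the same direction as without it. With that block and no replicate covariate, 78 genes were called (0.632%). Without the HCT116 5-Aza-CdR, the HCT116 combination or the HL60 combination array of replicate 2 the count was 3699, 3302 or 3370. Single genes written as higher below were called as deposited, after centring and after quantile normalization, and the adjusted p with the block is printed where the block ends the call. All 4 HCT116 arrays lay above all 4 HL60 arrays for 686 genes (5.56%) and below them for 3230 (26.2%).

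HL60 carried the granule proteins of neutrophil and eosinophil precursors. PRG2, the major basic protein of eosinophil granules, had log2 levels of 15.87 to 16.04 in HL60 against 8.25, 8.12, 7.62 and 7.35 in HCT116 (the order of 4 values throughout is replicate 1 with 5-Aza-CdR and with the combination, then replicate 2). Its difference, -8.12 ± 0.28 (relative -7.42, adjusted p = 1.94e-07, limma), was the largest of the 12349 genes. PRTN3, the serine protease proteinase 3, stood at 13.90, 14.06, 15.38 and 15.38 in HL60 and at 8.21, 8.07, 7.11 and 7.23 in HCT116, a difference of -7.03 ± 0.44 (adjusted p = 3.31e-06, limma). CTSG, cathepsin G of the same azurophil granules, stood at 14.61, 14.50, 14.46 and 13.91 against 8.09, 8.07, 6.87 and 7.10, a difference of -6.84 ± 0.29 (adjusted p = 5.4e-07, limma). No HCT116 array reached an HL60 array for these 3 genes. SRGN, the proteoglycan that packs granule proteases, moved with the replicate number as well: 15.92 and 15.93 in replicate 1 but 12.01 and 12.17 in replicate 2 of HL60, against 6.81 to 9.23 in HCT116 (-5.90 ± 0.38). LCN2, a siderophore-binding granule protein, was higher in HL60, with 9.86 to 11.99 against 7.67 to 8.30. SERPINB1, an inhibitor of these proteases, differed by -2.65 ± 0.30, from 9.39 to 12.74 in HL60 and 6.87 to 10.07 in HCT116. Of 10 granule genes compared, 0 were called higher in HCT116 and 10 in HL60 (beside 5.60% and 39.7% of all genes), 0 and 9 after centring (30.0% and 20.3%), and 0 and 7 with the block (1.36% and 6.07%). Their median difference was -3.13, against -0.70 over all genes.

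Most granule genes could not be compared, because 17 of the 29 on the list had values for HL60 only. MPO, the myeloperoxidase typical of promyelocytes, stood at 15.86, 15.87, 14.94 and 15.11 in HL60, and ELANE, neutrophil elastase, at 15.62, 15.04, 15.29 and 15.02. AZU1, the antibacterial protein azurocidin, stood at 13.24, 12.76, 14.04 and 14.21. LYZ, lysozyme, differed between replicates, with 12.64 and 13.24 in replicate 1 and 8.71 and 9.27 in replicate 2. CLC, S100A9 and S100A8 were chosen after their values were seen. CLC, the Charcot-Leyden crystal protein of eosinophils, was listed at 0 on the HCT116 replicate 2 arrays. On the replicate 1 arrays CLC stood at 8.08 and 8.22, against 15.57 and 15.62 in HL60. With zeros read as not measured its difference was -7.45 ± 0.51 (adjusted p = 0.00192, limma). S100A9, a calcium-binding protein of neutrophil cytosol, was at 0 on the same arrays and stood at 7.90 and 7.99 in HCT116 replicate 1 against 15.71 and 15.27 in HL60. S100A8, its partner, had values for HL60 only, from 15.08 to 15.38.

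The transcription factors of myeloid progenitors were higher in HL60. MYB, a factor that keeps haematopoietic progenitors cycling, stood at 14.12, 13.91, 14.95 and 14.90 in HL60 and at 8.57, 8.58, 8.17 and 7.54 in HCT116, a difference of -6.25 ± 0.36 (relative -5.56, adjusted p = 2.11e-06, limma). LYL1, a basic helix-loop-helix factor of early progenitors, lay at 13.46 to 14.96 against 8.62 to 9.06 (-5.29 ± 0.35). CEBPA, which starts the granulocyte programme, stood at 13.79, 13.70, 12.67 and 13.16 against 9.37, 9.24, 7.67 and 8.03 (-4.75 ± 0.28). None of these genes overlapped between the lines. CEBPA is also a liver factor, and in SNU398 it stood at 10.73 to 11.27. GFI1, a repressor needed for neutrophil maturation, differed by -4.25 ± 0.27 and GATA2, a progenitor factor, by -3.63 ± 0.27. Of 14 haematopoietic factors compared, 0 were called higher in HCT116 and 11 in HL60 (beside 5.60% and 39.7% of all genes), 1 and 10 after centring (30.0% and 20.3%), and 0 and 10 with the block (1.36% and 6.07%). SPI1 and CEBPE, the factor of late granule genes, had values for HL60 only, at 12.02 to 12.33 and 12.80 to 13.78.

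Leukocyte surface receptors were on the same side, with an exception. ITGB2, the beta chain of the leukocyte integrins, stood at 14.66, 14.67, 13.52 and 14.02 in HL60 against 8.98, 8.84, 8.08 and 7.88 in HCT116, a difference of -5.77 ± 0.26 (adjusted p = 8.31e-07, limma). TYROBP, the signalling adaptor of myeloid receptors, differed by -5.73 ± 0.36 and CD52, a small leukocyte surface glycoprotein, by -5.31 ± 0.30. CD14, the lipopolysaccharide co-receptor, and FPR1, a receptor for bacterial peptides, differed by -3.68 ± 0.29 and -2.84 ± 0.29. CD33, the lectin used to type myeloid leukaemia, differed by -2.68 ± 0.29, but its levels overlapped, because HCT116 replicate 1 stood at 8.93 and 9.07 and HL60 replicate 2 at 8.91 and 9.78. LAIR1, a collagen-binding inhibitory receptor of leukocytes, ran the other way: 15.75, 15.78, 15.37 and 15.39 in HCT116 against 12.20, 12.37, 11.86 and 11.93 in HL60 (3.48 ± 0.25, relative 4.18, adjusted p = 7.52e-06, limma). Its SNU398 levels were 11.65 to 11.72. Whether the same probe stands behind LAIR1 in the columns of both lines was not tested. Of 14 receptors compared, 1 were called higher in HCT116 and 11 in HL60 (beside 5.60% and 39.7% of all genes), 2 and 9 after centring (30.0% and 20.3%), and 1 and 9 with the block (1.36% and 6.07%). PTPRC, the pan-leukocyte antigen CD45, had values for HL60 only and was low there, at 8.19, 8.24, 7.46 and 7.55. CD53, a tetraspanin of leukocytes, was at 0 on the HCT116 replicate 2 arrays and stood at 7.85 and 8.16 on the replicate 1 arrays, against 9.76 to 11.54 in HL60.

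The most uniform group was the cytoskeletal and signalling proteins of blood cells. All 27 of these genes that were compared were called higher in HL60 as deposited, after centring and after quantile normalization, and 24 with the block. The shares of all genes called higher in HL60 in these fits were 39.7%, 20.3%, 22.3% and 6.07%. In 27 of the 27 the 4 HCT116 arrays lay below the 4 HL60 arrays, beside 26.2% of all genes. The members of the list were chosen with earlier results of these data known, so these counts describe the list and do not test it. LCP1, the actin-bundling protein L-plastin, stood at 15.45, 15.27, 15.02 and 15.21 in HL60 and at 8.35, 8.41, 7.73 and 7.60 in HCT116, a difference of -7.21 ± 0.26 (relative -6.51, adjusted p = 1.94e-07, limma). ARHGDIB, an inhibitor of small GTPases in leukocytes, differed by -6.20 ± 0.32, from 15.15 to 15.74 in HL60 and 8.65 to 9.65 in HCT116. CORO1A, an actin-binding coronin, LAPTM5, a lysosomal protein, and GMFG, a regulator of actin branching, differed by -5.86 ± 0.30, -5.86 ± 0.31 and -5.71 ± 0.30. WAS, the Wiskott-Aldrich syndrome protein, differed by -5.33 ± 0.27 and HCLS1, a cortactin relative, by -3.53 ± 0.27. ARHGEF6, an exchange factor for small GTPases, and C1ORF162 were among the 15 largest differences toward HL60, at -5.60 ± 0.26 and -5.60 ± 0.28. RAC2, the GTPase of the phagocyte oxidase, stood at 10.80, 10.88, 9.98 and 10.08 in HCT116 and at 15.16, 15.19, 13.64 and 14.25 in HL60 (-4.13 ± 0.27). CYBA, an oxidase subunit also found outside phagocytes, differed by less (-2.43 ± 0.37), while its partner CYBB, chosen after its values were seen, had values for HL60 only, at 10.99 to 12.17. The list's median difference was -3.45, and -2.67 after centring.

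The GAGGAA run in capitals above was present in 21 of 34 promoters of this signalling and cytoskeleton list that RefSeq holds (61.8%), in 19 of 34 of the receptor list (55.9%) and in 8 of 18 of the granule list (44.4%). Over all 35116 promoters of the same length it was present in 27.9%. The interferon list held it in 12 of 37 (32.4%), and the MSX1 and IFITM3 windows hold 1 and 2 such runs, which are not capitalised there. A match describes the letters and is not a measured binding site.

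**Figure D2:**
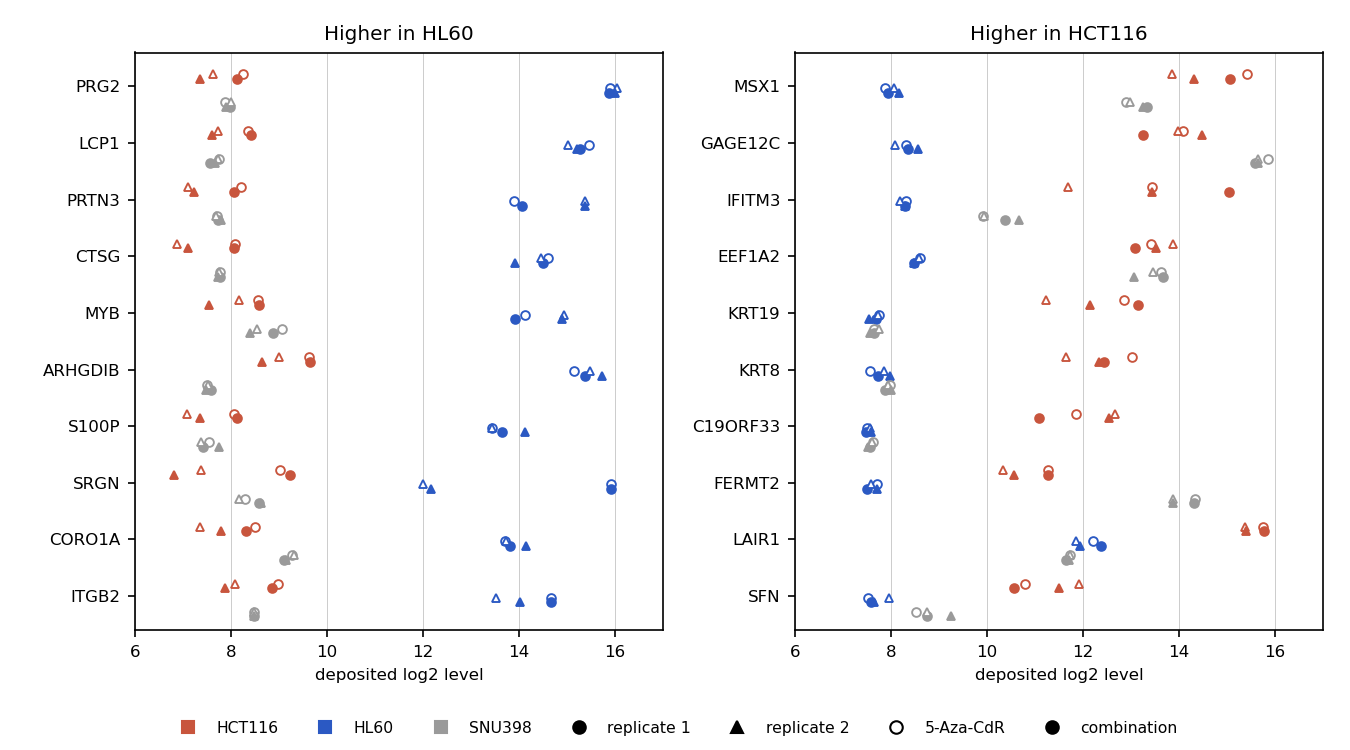
Deposited log2 levels of 10 genes higher in HL60 and 10 higher in HCT116 on every array: red, HCT116; blue, HL60; grey, SNU398; circles and triangles, replicates 1 and 2; open, 5-Aza-CdR; filled, combination. PRG2 lies at 15.87 to 16.04 in HL60 and 7.35 to 8.25 in HCT116, and MSX1 at 13.85 to 15.43 in HCT116 and 7.88 to 8.17 in HL60.

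HCT116 carried keratins of simple epithelia, while fewer of the other epithelial genes were called as deposited. KRT19, a type I keratin of simple epithelia, stood at 12.85, 13.14, 11.24 and 12.14 in HCT116 and at 7.74, 7.69, 7.73 and 7.55 in HL60, a difference of 4.66 ± 0.34 (relative 5.36, adjusted p = 7.72e-06, limma). KRT8, a type II keratin that pairs with it, stood at 13.02, 12.44, 11.65 and 12.33 against 7.56, 7.74, 7.86 and 7.97 (4.58 ± 0.32, adjusted p = 6.79e-06, limma). The lines did not overlap for either gene. KRT7, a keratin of ducts and glands, differed by 1.40 ± 0.29, a call lost with the block (adjusted p = 0.154). KRT18, the other partner of KRT8, was at 0 on the HCT116 replicate 2 arrays and stood at 8.96 and 9.02 on the replicate 1 arrays, against 7.70 to 7.84 in HL60. KRT20, a keratin of mature intestinal cells, was not called (8.58, 8.87, 6.88 and 7.12 against 7.48 to 7.79, 0.24 ± 0.39, adjusted p = 0.631). Of 10 keratins compared, 3 were called higher in HCT116 and 0 in HL60 (beside 5.60% and 39.7% of all genes), 10 and 0 after centring (30.0% and 20.3%), and 2 and 0 with the block (1.36% and 6.07%). After centring KRT20 too was called higher in HCT116 (1.02, adjusted p = 0.00439, limma). The limit given above for genes low in both lines applies to the centred count.

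Junction genes differed by less. DSG2, the desmosomal cadherin of simple epithelia, stood at 9.89, 10.01, 10.74 and 10.98 in HCT116 and at 7.89, 7.83, 7.71 and 7.69 in HL60 (2.63 ± 0.30, relative 3.32, adjusted p = 0.000128, limma). EPCAM, an epithelial adhesion protein, depended on the replicate number, at 11.50 and 12.16 in HCT116 replicate 1 and 8.16 and 8.57 in replicate 2, against 7.54 to 7.81 in HL60 (2.43 ± 0.58, adjusted p = 0.00769, limma). LSR, a tricellular junction receptor, CLDN7, a claudin, and CGN, the tight junction protein cingulin, differed by 1.30 ± 0.28, 1.14 ± 0.31 and 1.06 ± 0.27. Their calls were lost with the block (adjusted p = 0.164, 0.244 and 0.252). CDH1, E-cadherin, was at 0 on the HCT116 replicate 2 arrays, and its replicate 1 levels were 8.19 and 8.34 against 7.67 to 7.75 in HL60 (with zeros as not measured 0.53 ± 0.21, adjusted p = 0.133). The limit given above for genes low in both lines applies to CDH1 as well. Of 24 junction genes compared, 7 were called higher in HCT116 and 3 in HL60 (beside 5.60% and 39.7% of all genes), 19 and 0 after centring (30.0% and 20.3%), and 2 and 0 with the block (1.36% and 6.07%).

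Some genes of the intestine were higher in HL60. CDX2, the homeobox factor of intestinal cells, stood at 8.57 and 8.48 in HCT116 replicate 2 and 7.70 to 8.25 in HL60, with HCT116 above HL60 on all arrays, and was not called as deposited (0.52 ± 0.26, adjusted p = 0.124). After centring CDX2 was called higher in HCT116 (adjusted p = 0.00338). ANPEP, an aminopeptidase of the gut brush border that myeloid cells also carry as CD13, was higher in HL60, with 12.05 to 12.56 against 7.31 to 8.29 (-4.50 ± 0.32, adjusted p = 6.59e-06, limma). TFF3, a mucosal trefoil peptide, stood at 9.90, 10.26, 11.65 and 11.55 in HL60 against 8.80, 8.57, 8.30 and 8.41 in HCT116 (-2.32 ± 0.38). ASCL2, an intestinal stem cell factor, stood at 9.71, 9.79, 11.51 and 11.01 against 8.02, 8.07, 7.07 and 7.30 (-2.89 ± 0.45). Of 7 colon and intestine markers compared, 0 were called higher in HCT116 and 4 in HL60 (beside 5.60% and 39.7% of all genes), 2 and 3 after centring (30.0% and 20.3%), and 0 and 3 with the block (1.36% and 6.07%). ID1, a BMP-induced inhibitor of differentiation factors, stood at 11.01, 10.60, 9.63 and 9.49 in HCT116 against 7.52 to 7.67 in HL60 (2.58 ± 0.31). It was the 1 gene called as deposited among 12 epithelial and gut transcription and splicing factors. Over all genes 5.60% were called higher in HCT116 and 39.7% in HL60. After centring 11 of the 12 were called higher in HCT116 and 0 in HL60 (beside 30.0% and 20.3%). With the block it was 1 and 0 (1.36% and 6.07%).

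Several genes by which epithelial cells hold to matrix were higher in HCT116. FERMT2, the integrin activator kindlin-2, stood at 11.28, 11.26, 10.33 and 10.55 against 7.71, 7.51, 7.59 and 7.71 in HL60 (3.23 ± 0.29, relative 3.93, adjusted p = 2.75e-05, limma). LAMA5 and LAMC1, laminin chains of basement membrane, differed by 3.13 ± 0.33 and 2.45 ± 0.26, and ITGB5 and ITGA3, integrin chains, by 2.45 ± 0.32 and 2.01 ± 0.26. COL17A1, a hemidesmosome collagen, was higher in HL60, at 11.18, 11.42, 9.43 and 9.85 against 7.29 to 8.25 in HCT116 (-2.68 ± 0.28). Of 19 genes on that list, 7 were called higher in HCT116 and 2 in HL60 (beside 5.60% and 39.7% of all genes), 14 and 1 after centring (30.0% and 20.3%), and 5 and 1 with the block (1.36% and 6.07%).

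Growth factor receptors and ligands were called in both directions. BMP4, a ligand that induces ID1, stood at 10.75 to 11.05 in HCT116 against 8.04, 7.91, 7.69 and 8.10 in HL60 (3.01 ± 0.26, adjusted p = 2.3e-05, limma). The receptor kinases EPHB4, AXL and ERBB2 differed by 1.79 ± 0.30, 1.75 ± 0.27 and 1.30 ± 0.29, with calls lost under the block (adjusted p = 0.104, 0.0671 and 0.21). TGFBR2, a TGF-beta receptor, was higher in HL60, at 11.85, 11.78, 8.22 and 9.34 against 8.73, 8.73, 6.70 and 7.01 in HCT116 (-2.51 ± 0.34). SPRY2, a feedback inhibitor of receptor kinases, was also higher in HL60 (-2.89 ± 0.26). Of 21 growth factor receptors and ligands, 9 were called higher in HCT116 and 3 in HL60 (beside 5.60% and 39.7% of all genes), 17 and 3 after centring (30.0% and 20.3%), and 1 and 2 with the block (1.36% and 6.07%).

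Among the TEAD factors and their targets, known from adherent cells, TEAD2 stood at 10.88, 10.91, 9.23 and 9.32 against 7.64 to 8.22 (2.24 ± 0.39). CYR61, a matrix protein induced by YAP, stood at 11.59, 11.56, 8.25 and 9.13 against 7.61 to 7.79 (2.44 ± 0.52). TEAD4 and CTGF differed by 1.71 ± 0.30 and 1.55 ± 0.41, with calls lost under the block (adjusted p = 0.0725 and 0.122). Of 12 genes on the list, 4 were called higher in HCT116 and 2 in HL60 (beside 5.60% and 39.7% of all genes), 9 and 0 after centring (30.0% and 20.3%), and 2 and 0 with the block (1.36% and 6.07%). Among Wnt targets, CCND1, cyclin D1, stood at 13.05, 12.94, 13.54 and 13.16 against 10.51, 10.85, 12.09 and 12.15 (1.77 ± 0.31), a call lost with the block (adjusted p = 0.0794). DKK1, a secreted Wnt inhibitor, stood at 11.17, 11.28, 7.91 and 8.44 in HCT116 and 7.60, 7.52, 8.08 and 7.87 in HL60 (1.93 ± 0.59), a call lost with the block (adjusted p = 0.0996). Of 10 Wnt genes compared, 2 were called higher in HCT116 and 2 in HL60 (beside 5.60% and 39.7% of all genes). After centring it was 8 and 0 (30.0% and 20.3%), and with the block 0 and 0 (1.36% and 6.07%).

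The largest difference toward HCT116 was in MSX1, a homeobox factor of embryonic limb and craniofacial development. MSX1 stood at 15.43, 15.06, 13.85 and 14.30 in HCT116 against 7.88, 7.94, 8.06 and 8.17 in HL60, a difference of 6.65 ± 0.34 (relative 7.35, adjusted p = 1.25e-06, limma). It was also high in SNU398, at 12.89 to 13.33. Its promoter window holds 31 CG, against a median of 14 over 35116 promoters, and 20.7% of promoters hold at least as many. EEF1A2, a translation elongation factor normally found in muscle and neurons, stood at 13.42, 13.08, 13.88 and 13.51 against 8.61, 8.47, 8.59 and 8.48 (4.94 ± 0.26), and at 13.06 to 13.67 in SNU398. C19ORF33 differed by 4.51 ± 0.31, with SNU398 levels of 7.52 to 7.63.

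Cancer-testis genes, normally confined to germ cells and known to be opened by DNA demethylation, were also among the largest differences. GAGE12C stood at 14.09, 13.26, 13.98 and 14.48 in HCT116 and at 8.31, 8.34, 8.09 and 8.56 in HL60 (5.63 ± 0.31, relative 6.33, adjusted p = 1.52e-06, limma). The GAGE genes are near-identical copies that a probe may not tell apart, so their values are uncertain for any single copy. Of 20 GAGE symbols compared, 16 were called higher in HCT116, with differences from 1.5 to 5.94, and 14 with the block, beside 5.60% and 1.36% of all genes. In SNU398 these 16 lay at 13.06 to 15.98, and GAGE12C at 15.57 to 15.85. PAGE1, a relative of the GAGE genes, stood at 9.90, 9.13, 9.74 and 9.98 against 7.42 to 7.69 (2.15 ± 0.28). SPANXA1, of another copied family expressed in sperm, stood at 8.67, 8.84, 12.04 and 11.45 in HCT116 against 7.44 to 7.64 in HL60 (2.69 ± 0.52), so its replicate 2 arrays were the higher. TKTL1, a transketolase-like gene, was higher in HL60, at 12.58, 12.28, 14.03 and 14.20 against 9.43, 9.11, 11.70 and 12.09 (-2.69 ± 0.30). Of 35 cancer-testis genes compared, 12 were called higher in HCT116 and 4 in HL60 (beside 5.60% and 39.7% of all genes), 28 and 2 after centring (30.0% and 20.3%), and 3 and 1 with the block (1.36% and 6.07%). The part of decitabine in these levels was not tested.

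**Figure D3:**
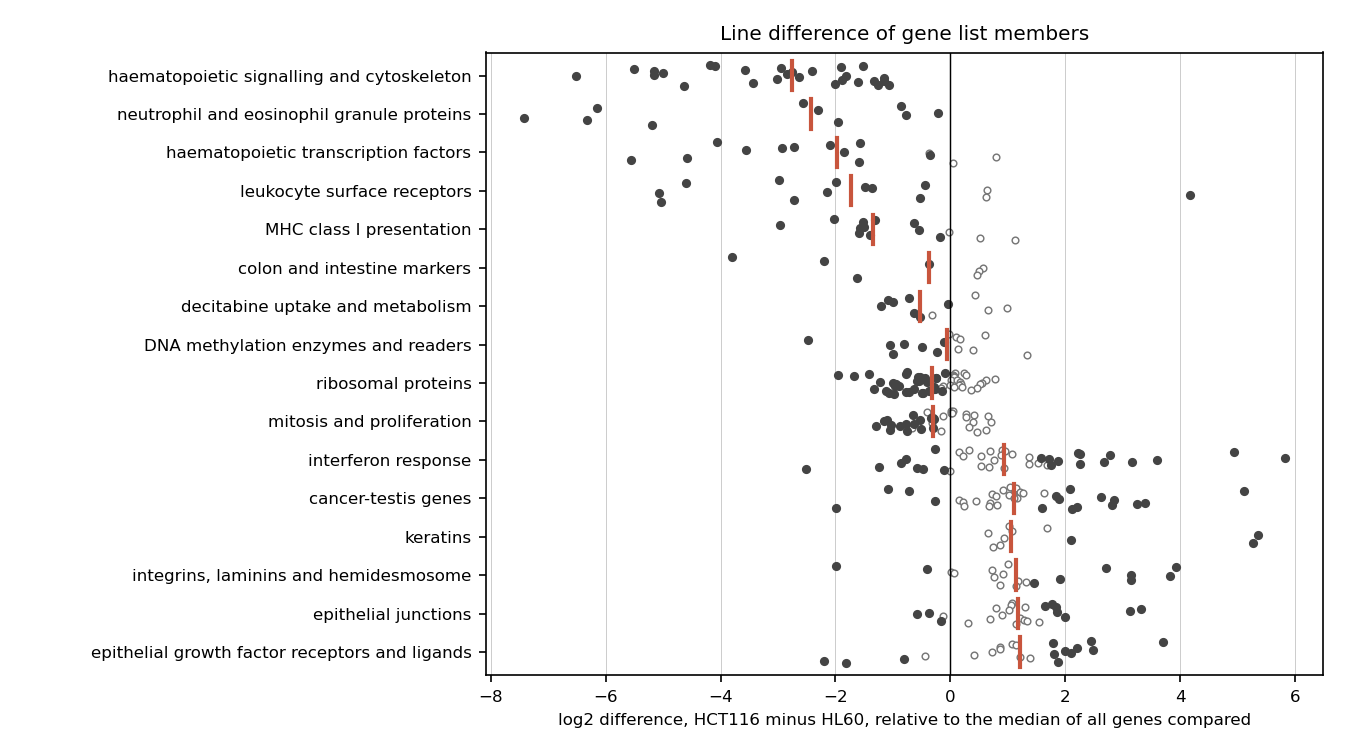
Difference in log2 level, HCT116 minus HL60, less the median difference of all genes, for the members of 16 gene lists: filled points passed limma at an adjusted p under 0.05, open points did not, and red bars mark list medians. LAIR1 is the point at 4.18 among the leukocyte receptors, and IFITM3 the point at 5.82 among the interferon genes.

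Interferon-response genes were called in both directions, with more of them higher in HCT116. Interferons act through STAT and IRF factors on response elements such as the one capitalised in the IFITM3 promoter. Of 37 promoters of the interferon list, 24 hold this ISRE core (64.9%), against 3.57% of all promoters. IFITM3, a membrane protein that blocks virus entry, stood at 13.44, 15.05, 11.69 and 13.44 in HCT116 and at 8.32, 8.29, 8.20 and 8.30 in HL60 (5.13 ± 0.43, relative 5.82, adjusted p = 1.98e-05, limma). IFI27, an interferon-induced protein, stood at 12.52, 13.38, 10.46 and 11.59 against 7.69, 7.75, 7.84 and 7.74 (4.23 ± 0.42). In both genes the HCT116 combination arrays stood above the 5-Aza-CdR arrays at each replicate number. ISG15, a ubiquitin-like modifier, stood at 14.76, 15.22, 14.01 and 14.98 in HCT116 and at 10.85, 10.78, 13.01 and 12.71 in HL60 (2.91 ± 0.49, adjusted p = 0.0011, limma). LGALS3BP, a secreted glycoprotein, and IFIT1, an RNA-binding antiviral protein, differed by 2.46 ± 0.49 and 2.09 ± 0.33, with calls lost under the block (adjusted p = 0.0704 and 0.0594). UBA7, the enzyme that activates ISG15 for conjugation, was higher in HL60, at 10.25, 10.13, 12.17 and 12.15 against 7.89, 8.04, 8.03 and 7.89 in HCT116 (-3.21 ± 0.39, adjusted p = 0.000188, limma). ISG15 and its activating enzyme lay on opposite sides. SAMD9, an antiviral factor, and IRF1, an interferon-induced regulator, differed by -1.94 ± 0.45 and -1.48 ± 0.29, with calls lost under the block (adjusted p = 0.133 and 0.143). Of 39 interferon genes compared, 13 were called higher in HCT116 and 8 in HL60 (beside 5.60% and 39.7% of all genes), 27 and 4 after centring (30.0% and 20.3%), and 3 and 1 with the block (1.36% and 6.07%).

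Class I antigen presentation genes were mostly called higher in HL60. HLA-B, a class I heavy chain, stood at 14.21, 15.21, 12.78 and 13.91 in HL60 and at 11.41, 11.65, 9.10 and 9.25 in HCT116 (-3.67 ± 0.32, relative -2.97, adjusted p = 2.58e-05, limma). B2M, the light chain of class I molecules, stood at 14.93, 16.25, 12.15 and 13.24 against 12.83, 12.94, 9.65 and 10.27, a difference of -2.72 ± 0.29 in which HCT116 replicate 1 overlapped HL60 replicate 2. HLA-E, a class I chain read by NK cells, and PSMB8, an immunoproteasome subunit, differed by -2.27 ± 0.28 and -2.10 ± 0.25. Class I heavy chains are close relatives, so a probe may take signal from more than 1 of them. Of 14 class I pathway genes compared, 0 were called higher in HCT116 and 11 in HL60 (beside 5.60% and 39.7% of all genes), 2 and 10 after centring (30.0% and 20.3%), and 0 and 8 with the block (1.36% and 6.07%). Of the class II genes, CD74, the invariant chain, differed by -2.54 ± 0.30 and HLA-DRA by -2.02 ± 0.34, with HL60 levels of 9.64 to 10.59 and 9.91 to 10.34. Of 7 class II genes compared, 0 were called higher in HCT116 and 4 in HL60 (beside 5.60% and 39.7% of all genes), 3 and 3 after centring (30.0% and 20.3%), and 0 and 2 with the block (1.36% and 6.07%).

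**Figure D4:**
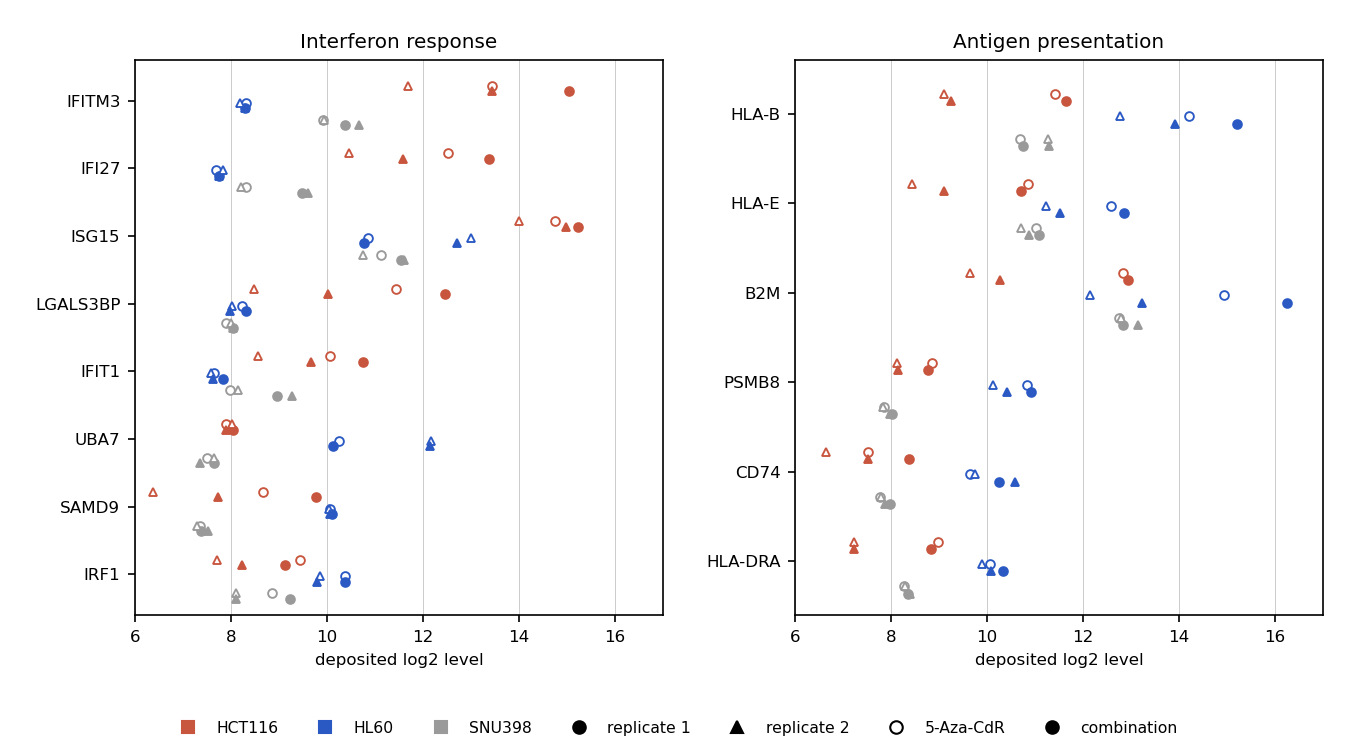
Deposited log2 levels of 8 interferon-response and 6 antigen presentation genes on every array, with lines, replicates and treatments marked as in the plot of leading genes. IFITM3 lies at 8.20 to 8.32 in HL60 and at 11.69 to 15.05 in HCT116, while HLA-B lies at 12.78 to 15.21 in HL60 and at 9.10 to 11.65 in HCT116.

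S100 calcium-binding proteins were called in both directions. S100P, also known from epithelial cancers, stood at 13.45, 13.64, 13.44 and 14.13 in HL60 against 8.07, 8.12, 7.08 and 7.35 in HCT116 (-6.01 ± 0.31, adjusted p = 1.25e-06, limma). S100A4 and S100A11 were also higher in HL60 (-2.66 ± 0.54 and -1.88 ± 0.25). S100A10, the partner of annexin A2, stood at 14.97, 15.13, 11.93 and 12.63 in HCT116 against 11.75, 11.97, 10.49 and 10.70 in HL60 (2.44 ± 0.35), and S100A3 at 8.73 to 10.79 against 7.47 to 7.67 (2.29 ± 0.37). ANXA2, annexin A2 itself, differed by 1.75 ± 0.38, a call lost with the block (adjusted p = 0.0825). Of 10 S100 genes compared, 5 were called higher in HCT116 and 3 in HL60 (beside 5.60% and 39.7% of all genes), 7 and 3 after centring (30.0% and 20.3%), and 2 and 3 with the block (1.36% and 6.07%).

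SFN, the cell cycle inhibitor 14-3-3 sigma and also an epithelial gene, was higher in HCT116, at 10.79, 10.57, 11.91 and 11.50 against 7.51, 7.58, 7.96 and 7.66 (3.52 ± 0.28, adjusted p = 1.43e-05, limma). TNFRSF10B, a TRAIL receptor, differed by 1.56 ± 0.27 toward HCT116. BAX, a pro-apoptotic pore protein, and CCNG1, cyclin G1, differed by -1.69 ± 0.26 and -1.78 ± 0.35 toward HL60. The calls of TNFRSF10B, BAX and CCNG1 were lost with the block (adjusted p = 0.115, 0.0747 and 0.0918).

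Genes known to be altered in HL60 were measured too. MYC, amplified in HL60, stood at 11.08, 11.70, 7.46 and 7.85 in HCT116 against 13.09, 12.82, 9.15 and 9.73 in HL60 (-1.68 ± 0.27; with the block, adjusted p = 0.106). MYC overlapped between the lines and was lower in replicate 2 of each line. CDKN2A, deleted in HL60, was not called (0.27 ± 0.42, adjusted p = 0.611), with a difference of 1.36 in replicate 1 and -0.81 in replicate 2. After centring CDKN2A was called higher in HCT116 (1.05, adjusted p = 0.00693). BCL2L1, which encodes the survival protein BCL-XL, stood at 10.43 to 12.31 in HCT116 against 9.30 to 10.12 in HL60 (1.73 ± 0.30), a call lost with the block (adjusted p = 0.0927). Of 13 BCL2 family genes compared, 1 were called higher in HCT116 and 5 in HL60 (beside 5.60% and 39.7% of all genes), 5 and 3 after centring (30.0% and 20.3%), and 0 and 0 with the block (1.36% and 6.07%).

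Decitabine enters cells through nucleoside transporters, is phosphorylated by DCK and is inactivated by CDA. CDA, cytidine deaminase, stood at 10.63, 11.08, 9.81 and 10.35 in HL60 against 9.59, 9.50, 7.69 and 7.96 in HCT116, a difference of -1.78 ± 0.30 (relative -1.09, adjusted p = 0.00108, limma). CMPK1, a pyrimidine monophosphate kinase, and DUT, which clears dUTP, differed by -1.70 ± 0.29 and -1.91 ± 0.28. The calls of CDA, CMPK1 and DUT were lost with the block (adjusted p = 0.0729, 0.101 and 0.0579). DCK was at 0 on the HCT116 replicate 2 arrays and stood at 9.58 and 10.01 on the replicate 1 arrays, against 10.82, 10.82, 7.60 and 7.61 in HL60. SLC29A1, the transporter ENT1, was not called (-1.02 ± 0.55, adjusted p = 0.143), with 10.60, 10.58, 7.69 and 7.64 in HCT116 around 9.99 to 10.40 in HL60. Of 11 such genes compared, 0 were called higher in HCT116 and 7 in HL60 (beside 5.60% and 39.7% of all genes), 2 and 3 after centring (30.0% and 20.3%), and 0 and 0 with the block (1.36% and 6.07%).

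The DNA methyltransferases measured on all 8 arrays were not called as deposited. DNMT1, the maintenance enzyme, stood at 13.60, 13.19, 10.81 and 11.21 in HCT116 and at 13.30, 13.22, 12.24 and 12.89 in HL60 (-0.72 ± 0.38, adjusted p = 0.141; 0.06 after centring). DNMT3B, a de novo enzyme, differed by -0.10 ± 0.32 as deposited (adjusted p = 0.814) and by 0.68 after centring (adjusted p = 0.00529). TET1, which oxidises methylcytosine, differed by -0.57 ± 0.34 (adjusted p = 0.19), and DNMT3A was at 0 on the HCT116 replicate 2 arrays. IDH2, which makes a cofactor of the TET enzymes, was higher in HL60, at 11.94, 11.83, 11.07 and 11.55 against 9.19, 9.05, 7.74 and 7.75 (-3.17 ± 0.29, adjusted p = 3.1e-05, limma). MBD4 and ZBTB33, which bind methylated DNA, differed by -1.75 ± 0.36 and -1.70 ± 0.28, with calls lost under the block (adjusted p = 0.109 and 0.0965). Of 14 such genes, 0 were called higher in HCT116 and 7 in HL60 (beside 5.60% and 39.7% of all genes), 2 and 4 after centring (30.0% and 20.3%), and 0 and 1 with the block (1.36% and 6.07%).

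Of 34 mitosis and proliferation genes, 0 were called higher in HCT116 and 16 in HL60 (beside 5.60% and 39.7% of all genes), 5 and 8 after centring (30.0% and 20.3%), and 0 and 1 with the block (1.36% and 6.07%). MCM6, a replication helicase subunit, was the 1 gene of that list called with the block (-1.98 ± 0.30). Of 56 ribosomal protein genes, 0 were called higher in HCT116 and 34 in HL60 (beside 5.60% and 39.7% of all genes), 3 and 17 after centring (30.0% and 20.3%), and 0 and 3 with the block (1.36% and 6.07%). GUSB and PGK1, often used as references, were higher in HL60 (-2.85 ± 0.29 and -2.03 ± 0.27). YWHAZ, of the same list, was higher in HCT116 (0.95 ± 0.31), a call lost with the block (adjusted p = 0.348) and without any of 5 single arrays. Of 19 housekeeping genes compared, 1 were called higher in HCT116 and 8 in HL60 (beside 5.60% and 39.7% of all genes), 3 and 3 after centring (30.0% and 20.3%), and 0 and 3 with the block (1.36% and 6.07%). Of markers of other cell types, 6 T and NK cell genes were compared and lay between 6.79 and 9.55 over both lines. The 3 B cell genes compared lay between 7.10 and 9.09. Of the 6, 1 were called higher in HCT116 and 0 in HL60 (beside 5.60% and 39.7% of all genes). After centring it was 3 and 0 (30.0% and 20.3%). For the 3 B cell genes these counts were 0 and 1, and 2 and 0 after centring. For 5 erythroid and megakaryocyte genes they were 1 and 0, and 4 and 0 after centring. Chosen after their values were seen, NKG7, a granule protein of killer cells, and HP, haptoglobin, had values for HL60 only and stood at 11.58 to 12.40 and 11.51 to 12.59 there.

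For the line by treatment term limma called 0 of 12349 genes (0.00%), with 0 at an unadjusted p under 0.05, and 0 with a replicate block within each line, where 163 had an unadjusted p under 0.05. The 5 genes with the smallest p were IFITM3, TAPBP, TOR1B, ASGR1 and OASL, each with an adjusted p of 1.0. For IFITM3 the combination minus 5-Aza-CdR was 1.60 and 1.75 in HCT116 and -0.03 and 0.10 in HL60 (replicates 1 and 2), a difference of 1.64 ± 0.80 between the lines. TAPBP, the tapasin of class I peptide loading, gave 1.02 and 1.02 in HCT116 and -0.15 and -0.21 in HL60. OASL, an antiviral protein, gave 1.04 and 1.13 in HCT116 and -0.05 and -0.34 in HL60. TOR1B, a torsin, and ASGR1, a lectin receptor, ran the other way, with 0.99 and 1.33, and 0.66 and 1.13, in HL60. The fit of this term has 3 residual degrees of freedom.

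The line difference varied with the replicate number. Across the 12349 genes, differences in replicate 1 and in replicate 2 had a Pearson correlation of 0.73 and a Spearman correlation of 0.69, given as a description, since genes are not independent. As deposited, limma called 8710 genes (70.5%) for a line by replicate term, 8490 of them with a lower value in replicate 2. After centring it called 2053 (16.6%), 1058 with a higher and 995 with a lower value in replicate 2, and 73.6% of genes had the same sign in both replicates. PRG2 differed by -7.70 and -8.54, LCP1 by -6.98 and -7.45, MSX1 by 7.34 and 5.96 and KRT8 by 5.08 and 4.07 in replicates 1 and 2. Interferon genes had medians of 0.97 and -0.37, and junction genes of 1.16 and -0.09.

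**Figure D5:**
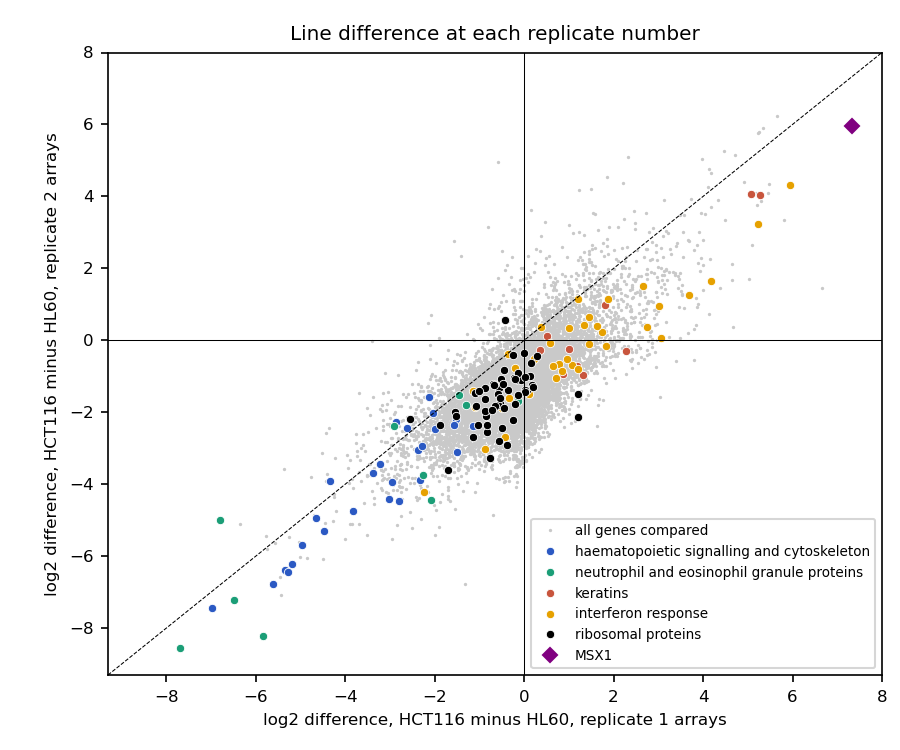
Log2 difference, HCT116 minus HL60, from the replicate 1 arrays (x axis) and the replicate 2 arrays (y axis) for every gene compared, with gene lists coloured; the dashed line is equality. PRG2 lies at -7.70 and -8.54 and MSX1 at 7.34 and 5.96, and the median over genes is -0.09 in replicate 1 and -1.21 in replicate 2.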

How the data were processed

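Total RNA was labelled and hybridised to Illumina bead arrays, per the labels' protocols. The deposited series table holds log2 values that the authors had already normalized, and the submitters' processing notes name limma. Sources used here do not state the normalization method, the array version or what a 0 stands for. A bead-level table of 44 columns from 11 arrays was not used, since its column names match no sample.

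Genes above 0 on all 8 arrays were fitted with limma 3.58.1 in R 4.3.3 (line, treatment and replicate number as terms, 4 residual degrees of freedom) and called at a Benjamini-Hochberg adjusted p under 0.05 over 12349 genes. The line by treatment test added that term. Scripts were tested on simulated data. The simulated arrays varied independently of each other, so that test does not measure false calls in arrays paired by replicate number. Array number, with 4 arrays a line, limits the precision. Same-numbered arrays deviated together (correlation of deviations 0.907 in HCT116, 0.909 in HL60 and 0.651 to 0.685 between lines), so the numbers, taken from the sample labels, pair the arrays, and the replicate block was run as a random block and by averaging pairs. The averaged fit uses 1 spread for all genes, because its prior degrees of freedom were infinite.

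Genes named are up to 15 with the largest differences a direction without overlap, up to 6 called members a list and direction with the smallest p, cell type markers, and fixed genes of drug handling, DNA methylation and line alterations; exceptions are marked, and some genes of the rule are not reported here. The members and the 32 gene lists were chosen with earlier results of these data known. Of 806 list genes, 496 were compared. Promoters are RefSeq's for GRCh38.p14, and 15305 of 20545 symbols matched RefSeq.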

Additional observations from a re-analysis of the deposited data

Results flagged for a closer look

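Of 222 sets of 4 arrays (1 gene in 1 line), 5 had an array whose gap to the nearest other array exceeded Dixon's critical share of the range (2.25%). The nominal rate of about 1 in 20 holds for 4 independent arrays. Same-numbered arrays of a line deviated together, so that rate is no measure of chance here. C1ORF162 stood at 7.42 on the HCT116 combination replicate 2 array, against 8.01 to 8.07 on the other HCT116 arrays. EPHB4 stood at 7.80 on the HL60 5-Aza-CdR replicate 1 array, against 7.53 to 7.56. ERBB2 stood at 9.33 on the HCT116 combination replicate 2 array, against 9.64 to 9.68, and at 8.78 on the HL60 combination replicate 2 array, against 8.07 to 8.16. CCNG1 stood at 11.86 on the HL60 5-Aza-CdR replicate 2 array, against 11.18 to 11.28.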

How the results depend on the processing

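Against 5595 genes called in the line difference, 1905 were called with no replicate block, 917 with the random replicate block, 1228 with the replicate block by averaging pairs, 8426 and 10383 from the replicate 1 or replicate 2 arrays alone, and 907 and 1382 from the 5-Aza-CdR or combination arrays alone. Leaving out 1 array in turn gave 3302 to 6112. Among alternatives chosen after seeing the data, 78 genes were called with the random replicate block and no replicate covariate, 2627 with centred arrays and averaged pairs, 220 with averaged pairs and no replicate block, and 8754 with centred replicate 1 arrays. The cause of these changes was not tested, beyond the fewer arrays that some of these fits use.

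Of 111 genes named from the line difference, 104 were called, and all 104 were called in the same direction after quantile normalization and after centring. Without each array in turn 103 stayed called, the exception being YWHAZ, which lost its call without any of 5 arrays. With the random block 77 were called. Other fits ended more of these calls. Of the 111 genes, 74 lost their call with the random block and no replicate covariate. With averaged pairs and no replicate block 61 lost it. From the 5-Aza-CdR or combination arrays alone 30 or 21 lost it, and with no replicate block 23. None of the genes with a changed direction was called as deposited. KRT20 gave -0.70 from replicate 2 alone and -0.041 to 0.55 without 1 array in turn (-0.0029 without the HL60 5-Aza-CdR array of replicate 1). CDKN2A gave -0.81 from replicate 2 alone and -0.056 to 0.60 without 1 array in turn (-0.013 without the HCT116 5-Aza-CdR array of replicate 1). SLC29A1 gave 0.56 and 0.80 from replicate 1 alone, as deposited and centred. DNMT1 gave 0.28 after quantile normalization, 0.065 after centring with or without a block, and 0.13 and 0.37 from replicate 1 alone, as deposited and centred. DNMT3B gave 0.39 after quantile normalization, 0.68 after centring with or without a block, 0.51 from replicate 1 alone, 0.75 and 0.61 from centred replicates 1 and 2, and -0.29 to 0.12 without 1 array in turn (0.046 and 0.059 without the HCT116 replicate 2 arrays). TET1 gave 0.21 after centring with or without a block, 0.020 from replicate 1 alone, and 0.26 and 0.16 from centred replicates 1 and 2. The line by treatment test called 0 genes under every alternative run.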
